A study of Capra hircus with 29 samples.

Results

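Goat oocyte samples in which HSD17B2 was expressed were compared with oocyte samples in which it was close to absent. The labelled samples were divided by the FPKM of HSD17B2 itself, with 8 of 29 samples above 5 FPKM (positive) and 21 at or under 0.5 FPKM (negative). The samples were oocytes of the Ji'ning grey goat of a high fertility group, with over 3 kids per birth by the labels, and a low fertility group, with under 2, sorted by the size of the follicle they came from. The groups are HLO, HMO and HSO for large, medium and small follicles of high fertility, and LLO, LMO and LSO for low fertility, with 5 samples each except HSO, which had 4. The published limits of the groups also take in litters of exactly those sizes. Each sample held a few oocytes. For the high fertility group the methods state that the oocytes of a follicle size were pooled over goats and then divided into samples, so samples of a group can be portions of a pool rather than separate animals. No record ties a sample to its goats, and p-values measure the spread between these samples, which may be partly technical. The positive and negative samples are not groups of the study, since they were formed from a measured value, and every difference given here is an association across samples.

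HSD17B2 encodes a hydroxysteroid dehydrogenase that turns estradiol into the weaker estrone and testosterone into androstenedione. It is known as an enzyme that lowers local exposure to active sex steroids, in placenta, endometrium, liver and gut. A growing oocyte stores RNA and protein for the later embryo, and exchanges steroids, metabolites and peptide signals with the granulosa cells around it.

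HSD17B2 fell into separate ranges with no sample between them. In HMO it was 25.3 FPKM in replicate 1, 12.7 in replicate 3, 17.7 in replicate 4 and 27.4 in replicate 5. In LSO it was 18.5 FPKM in replicate 1, 7.44 in replicate 3 and 18.0 in replicate 4, and in LLO it was 41.7 FPKM in replicate 4. The 21 negative samples had a lowest value of 0.00931, a median of 0.0588 and a highest value of 0.143 FPKM, against a median of 18.3 FPKM in the 8 positive samples. The positive sample nearest the limit was LSO replicate 3 at 7.44 FPKM, and the negative sample nearest it was LLO replicate 3 at 0.143 FPKM. These values chose the samples, so HSD17B2 was not tested and was left out of all counts.

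Positive samples made up 4 of 5 in HMO, 3 of 5 in LSO and 1 of 5 in LLO, and 0 in HLO, HSO and LMO. By fertility there were 4 of 14 in the high and 4 of 15 in the low group. By follicle size there were 1 of 10 in large, 4 of 10 in medium and 3 of 9 in small follicles. HSD17B2 expression thus occurred in both fertility groups and in all 3 follicle sizes.

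**Figure D1:**
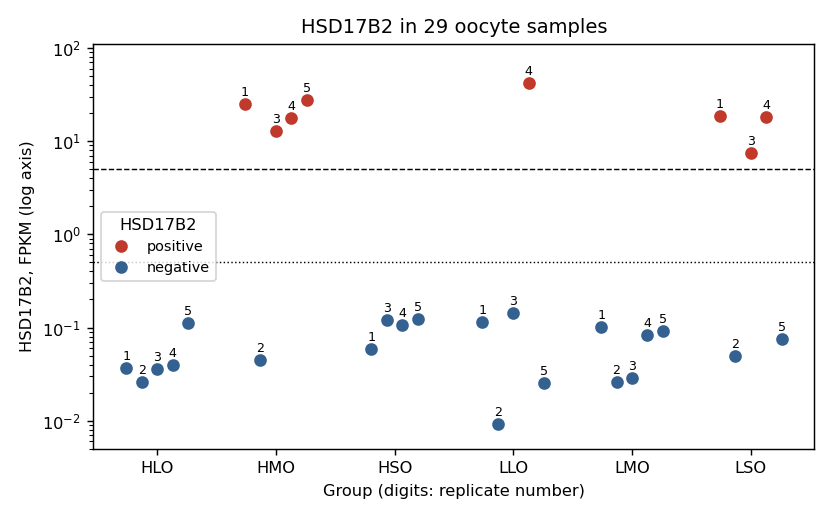
HSD17B2 in each of the 29 samples, by group, in FPKM on a log axis, with the replicate number over each point. The dashed line is 5 FPKM and the dotted line 0.5 FPKM. The 8 positive samples (red) sit between 7.44 and 41.7 FPKM and the 21 negative samples (blue) at or under 0.143 FPKM.

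Both kinds of sample carried oocyte RNA. The growth factor GDF9 was 189 FPKM at its lowest, 386 at the median and 696 at its highest in positive samples, against 31.9, 210 and 974 FPKM in negative samples. The growth factor BMP15 and the zona pellucida genes ZP2, ZP3 and ZP4 were above 50 FPKM in all 29 samples. GDF9, BMP15 and ZP3 did not pass limma's test (adjusted p of 0.346, 0.325 and 0.850). Of 26 tested oocyte genes, 0 were called higher and 1, DAZL, was called lower in positive samples. The granulosa receptors FSHR and LHCGR were at most 0.283 FPKM, and AMH, NR5A1 and INSL3 were listed at 0 in all samples. Other granulosa genes were present. STAR was 4.32 to 18.7 FPKM in positive and 10.97 to 39.0 in negative samples. The granulosa and cumulus list summed to 15.7 to 39.5 FPKM in positive and 23.0 to 79.6 in negative samples, so RNA of these cells was not shown to be absent. In these bulk samples, fewer cells of a type and less RNA per cell cannot be told apart.

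Some samples stood apart for reasons other than HSD17B2. LLO replicates 2 and 5, both negative, lay alone on the second principal component with scores of -92.7 and -101. LMO replicate 2, also negative, had the lowest FPKM sum, 222697, where the other samples had at least 347806. On the third principal component the positive samples LLO replicate 4 and LSO replicate 1 lay apart from the other positive samples, with scores of 72.4 and 69.4. All 8 positive samples were above 0 on it, at 5.52 or more, and 18 of 21 negative samples were below 0, with a highest score of 33.0. The first principal component, which held 39.0% of the variance, gave scores from -42.2 to 50.2 in positive samples and from -66.8 to 71.7 in negative samples. Within groups, the positive samples did not differ on it beyond the spread (difference 27.6, exact two-sided permutation test within groups, p = 0.32). The number of genes above 0.5 FPKM was 7425 to 8689 in positive and 6646 to 8452 in negative samples. Its difference within groups was 614 genes (exact permutation test, p = 0.092), and that of the FPKM sum was 27395 (exact permutation test, p = 0.244). With 250 possible arrangements, the smallest p these tests could give was 0.004.

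Across the transcriptome, many genes were higher in the HSD17B2-positive samples and fewer were lower. Over 9691 genes above 0.5 FPKM in at least 4 samples, limma's moderated test on log2(FPKM + 1), with follicle size and fertility as covariates, called 945 genes higher (9.75%) and 325 lower (3.35%) at a Benjamini-Hochberg adjusted p under 0.05. Together these were 13.1% of the genes tested, and the median difference of all genes was 0.08 on this scale. Of the genes called, 74.4% were higher. With quantile normalization, which moved the median of all genes to -0.04, 58.5% were higher, with 791 higher and 562 lower. Without LLO replicates 2 and 5 and LMO replicate 2 there were 1131 higher and 544 lower, and without the positive sample LLO replicate 4 there were 510 higher and 131 lower. Without LLO replicate 4 and LSO replicate 1 there were 366 higher and 56 lower, of which 365 and 55 were among the calls over all samples. With the number of genes detected as a covariate there were 942 higher and 1005 lower, so the excess of higher genes was not kept.

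The filter on low values fixed the direction of some genes. Of the genes tested, 529 were above 0.5 FPKM in under 4 negative samples, so they were tested only because of their level in positive samples. Of these, 246 were called higher and 0 lower, which is given as a description. Of the other 9162 genes, 699 were called higher (7.63%) and 325 lower (3.55%). The median difference of the higher genes was 0.88 and that of the lower genes -0.77. Differences beyond 2 on the log2 scale were found for 94 higher and 7 lower genes. Since log2(FPKM + 1) understates the change of low genes, many of these differences are smaller than the ratio of the FPKM values.

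In 144 genes (1.49%) the lowest positive sample lay above the highest negative sample. In 1 gene (0.0103%) the highest positive sample lay below the lowest negative sample. Of the 144, 64 were above 0.5 FPKM in under 4 negative samples, so the filter fixed their direction. The other 80 were among the 9162 genes above 0.5 FPKM in at least 4 negative samples. The counts in each direction are therefore given as a description. Of the 144 genes, 70 had a gap of more than 2-fold between the lowest positive and the highest negative sample, and 13 had more than 10-fold. Among the 8 positive samples, LLO replicate 4 was the highest in 79 of these genes and LSO replicate 1 in 36. HMO replicate 4 was the lowest in 32 and LSO replicate 3 in 34. Without LLO replicates 2 and 5 and LMO replicate 2, the groups did not overlap in 176 higher and 2 lower genes.

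The 12 higher genes named by rule, each carried by a single gene of the table, were PAK3, FKBP7, MYBPC2, CCL19, KAT2B, UBXN2A, CXCL10, ATP6AP1L, ALAS1, ROPN1L, CCDC170 and MCEE. In each of the 12 the positive and negative samples did not overlap. Of the 12, PAK3, FKBP7, MYBPC2, CCL19, KAT2B, CXCL10 and ALAS1 were above 0.5 FPKM in under 4 negative samples and passed the filter only through positive samples, so the values of these 7 are a description. They are genes of unlike roles, including signalling kinases, chemokines and enzymes of metabolism.

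PAK3 encodes a kinase acted on by the GTPases RAC and CDC42. It was 1.47 FPKM at its lowest, 2.59 at the median and 6.48 at its highest in positive samples, against 0, 0.0699 and 0.174 FPKM in negative samples. Its log2 difference was 1.95.

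Of the 7 genes that passed through positive samples alone, 2 encode chemokines and 1 a histone acetyltransferase. CCL19, a chemokine that binds CCR7, was 1.75, 2.22 and 6.72 FPKM at the lowest, median and highest positive sample, and was listed at 0 in 13 of 21 negative samples, with a highest value of 0.211. CXCL10, a chemokine induced by interferon, was 1.15, 2.44 and 5.57 FPKM in positive samples, against 0, 0.0628 and 0.306 in negative samples. Their log2 differences were 1.97 and 1.68, and both were under 7 FPKM in every sample. KAT2B, a histone acetyltransferase, was 1.83, 2.59 and 8.03 FPKM in positive samples and at most 0.430 FPKM in negative samples, a log2 difference of 1.84.

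Genes of metabolism and protein handling were among the higher genes as well. MCEE, the methylmalonyl-CoA epimerase of propionate breakdown, was the most abundant of the 12, at 15.3, 22.6 and 33.6 FPKM in positive samples against 2.09, 4.35 and 7.55 in negative samples (log2 difference 2.27, SE 0.19, limma's adjusted p = 2.32e-10). ALAS1, the rate-limiting enzyme of haem synthesis, was 0.634, 1.82 and 6.76 FPKM in positive samples and was listed at 0 in 12 of 21 negative samples. UBXN2A, a cofactor of the segregase p97, was 3.04, 6.396 and 14.7 FPKM in positive samples against 0.154, 0.471 and 1.25 in negative samples. Its log2 difference of 2.38 (SE 0.18) was the largest of the 12. FKBP7, a prolyl isomerase of the endoplasmic reticulum, was 2.48, 4.49 and 7.39 FPKM in positive samples and at most 0.690 in negative samples. MYBPC2, a myosin-binding protein of fast muscle, ATP6AP1L, related to an accessory subunit of the vacuolar proton pump, ROPN1L, a protein of the sperm tail, and CCDC170, a coiled-coil protein, had log2 differences of 1.67, 1.85, 1.80 and 1.81.

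The genes lower in positive samples differed less and overlapped more. HBEGF, a growth factor that binds the EGF receptor, was the 1 gene with no overlap, at 23.8, 41.7 and 60.7 FPKM in the lowest, median and highest positive sample against 61.2, 93.2 and 178 FPKM in negative samples. Its log2 difference was -1.21 (SE 0.20, limma's adjusted p = 4.76e-05). The highest positive and the lowest negative sample were 60.7 and 61.2 FPKM, so the gap was small. EGFL6, a secreted protein with EGF repeats, was 0.784, 9.43 and 24.1 FPKM in positive samples against 8.62, 36.9 and 64.9 in negative samples. It had the largest log2 difference of the 12 lower genes named by rule, -2.25 (SE 0.34), and 4 of 21 negative samples lay below the highest positive sample. EGFL6 was 0.784 FPKM in LLO replicate 4 and 0.891 in LSO replicate 1, and 5.83 to 24.1 in the other positive samples. In each of the 12 genes the lowest positive sample was LLO replicate 4 or LSO replicate 1. In most of them LMO replicate 2 was the highest negative sample. Without LLO replicate 4 and LSO replicate 1, 56 genes were called lower, against 325 over all samples.

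Of the other lower genes, PGRMC1 and STAR are known from steroid biology. PGRMC1, a haem-binding protein that mediates responses to progesterone, was 7.06, 7.84 and 11.1 FPKM in positive samples against 10.3, 18.2 and 40.7 in negative samples (log2 difference -1.06, SE 0.20, limma's adjusted p = 2.82e-04). STAR, which carries cholesterol into mitochondria for steroid synthesis, was 4.32, 10.1 and 18.7 FPKM in positive samples against 10.97, 24.1 and 39.0 in negative samples (log2 difference -1.19, SE 0.23). In PGRMC1, 1 of 21 negative samples lay below the highest positive sample, and in STAR 8 of 21 did. The remaining 8 genes were LAPTM5, a lysosomal membrane protein, STBD1, which binds glycogen, GPLD1, which cuts GPI anchors, and SPPL3, a protease within membranes, with SLC3A2, the heavy chain of amino acid transporters, LAMB1, a laminin chain, PGM3, an enzyme of UDP-GlcNAc synthesis, and SLC52A3, a riboflavin transporter. Their log2 differences ran from -1.26 for STBD1 to -1.02 for SLC52A3.

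**Figure D2:**
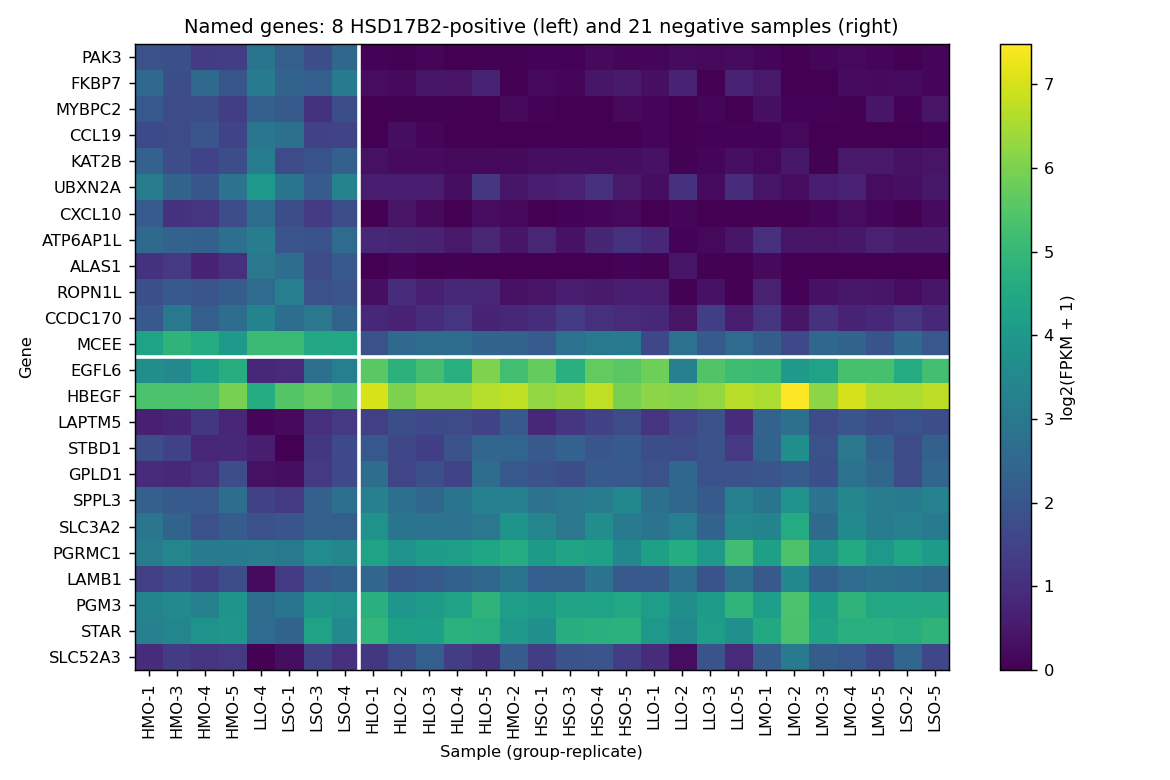
Level of the 12 higher genes (above the white line) and the 12 lower genes (below it) in each sample, as log2(FPKM + 1) by colour, with the 8 HSD17B2-positive samples left of the white line and the 21 negative samples right of it. The higher genes are dark in all negative samples except MCEE, at up to 7.55 FPKM, while the lower genes are present in most samples of both kinds.

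The genes whose level followed that of HSD17B2 most closely over the 29 samples were among those with no overlap. By Pearson's r of log2(FPKM + 1), given as a description, the 10 closest with a symbol of their own and a gene name were MYBPC2 (0.98), CXCL10 (0.97), DCDC2C, ATP6AP1L, KAT2B, CCL19, UBXN2A, FKBP7, PAK3 and MTHFD1L (0.95). Over all genes tested the closest was a copy of RPL19 (0.99), which shares its symbol with other genes. The 29 points form separate clusters and the genes share libraries, so the gap between clusters enters each r. Within the 8 positive samples alone, r ran from 0.36 (PAK3) to 0.85 (ATP6AP1L) among the 10 genes. DCDC2C, a doublecortin-domain gene, was listed at 0 in 18 of 21 negative samples and was 0.509 to 2.12 FPKM in positive samples. MTHFD1L, a mitochondrial enzyme of folate metabolism, was 0.448 to 1.74 FPKM in positive samples and at most 0.0731 FPKM in negative samples. Both DCDC2C and MTHFD1L passed the filter through positive samples alone.

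Genes that share their symbol with another gene of the table were described next. Of 1421 such genes tested, 190 were called higher (13.4%), against 9.75% of all genes tested. Among the 710 tested genes without a description, 20.7% were called higher and 3.24% lower, against 8.89% and 3.36% of the 8981 with one. In 7.32% of the genes without a description the groups did not overlap with positive samples higher, against 1.02% of those with one. Among genes above 0.5 FPKM in at least 4 negative samples, 99 of 629 without a description were called higher (15.7%) and 600 of 8533 with one (7.03%). The sequences of the copies were not looked at. Where copies are alike, read assignment between them is uncertain, so a value of 1 copy may include reads of another.

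In many symbols the copy that differed was not the best-expressed one. Among the symbols carried by several genes, 170 had a higher copy, and in 108 of them the copy with the smallest p was not the one with the highest mean level in negative samples. In these 108 symbols, the copy with the smallest p had a median difference of 1.37, and the copy with the highest level was called higher in 5, lower in 4 and not called in 99, of which 1 was too low to be tested. With FPKM summed over all copies, 20 of the 108 symbols were called higher and 1 lower. The copy with the smallest p lacked a description in 97 of the 108. Copies were chosen here by their p, so their size is a description and no test.

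The ribosomal protein gene RPS15A shows the pattern. Its copy ENSCHIG00000011047 was 23.0 FPKM at its lowest, 38.6 at the median and 68.7 at its highest in positive samples, and was listed at 0 in 14 of 21 negative samples, with a highest value of 0.557. Its log2 difference was 5.18, given as a description because it passed the filter through positive samples alone. The copy with the highest level, ENSCHIG00000022493, had medians of 430 and 506 FPKM in positive and negative samples and a log2 difference of -0.20 (limma's adjusted p = 0.850). Samples with and without HSD17B2 were separate on the first copy and mixed on the second.

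The same held for other genes of housekeeping roles. A copy of TCEB2, which encodes elongin B, had medians of 30.1 and 0.278 FPKM in positive and negative samples, while the copy with the highest level had 194 and 197 FPKM. The first of these passed the filter through positive samples alone and is given as a description. A copy of MRPL18, of the mitochondrial ribosome, had medians of 208 and 4.77 FPKM, a log2 difference of 5.27, while the other copy had -0.29. A copy of SNRNP27, a protein of the spliceosome, had medians of 463 and 12.1 FPKM, a log2 difference of 4.93, while the copy with the highest level had -0.34. In MRPL18 the copy that differed was the more abundant one in positive samples, at 208 FPKM against 84.9 FPKM.

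CRIPT was 1 of the 4 symbols whose copy with the highest level was called lower. A copy of CRIPT, whose product binds a scaffold protein of the synapse, had medians of 260 and 4.81 FPKM in positive and negative samples (log2 difference 5.48), while the copy with the highest level fell (369 and 630 FPKM, log2 difference -1.65, limma's adjusted p = 0.0159). That copy was 7.05 FPKM in LLO replicate 4 and 83.5 in LSO replicate 1, where the other 6 positive samples were 350.5 to 504.9 FPKM, and the negative samples ranged from 78.9 to 1006 FPKM. Summed over copies, CRIPT had a log2 difference of 0.10 (SE 0.32, limma's adjusted p = 0.899). Another example is ATP5E. A copy of it, the epsilon subunit of ATP synthase, was 57.3 to 950 FPKM in positive samples and was listed at 0 in 18 of 21 negative samples. The 3 other negative samples were 104 FPKM in HLO replicate 4, 46.1 in LMO replicate 1 and 42.0 in LMO replicate 3, so this copy was not separate between the groups. With under 4 negative samples above 0.5 FPKM, this copy passed the filter only because of positive samples. These symbols were chosen after their values were seen.

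**Figure D3:**
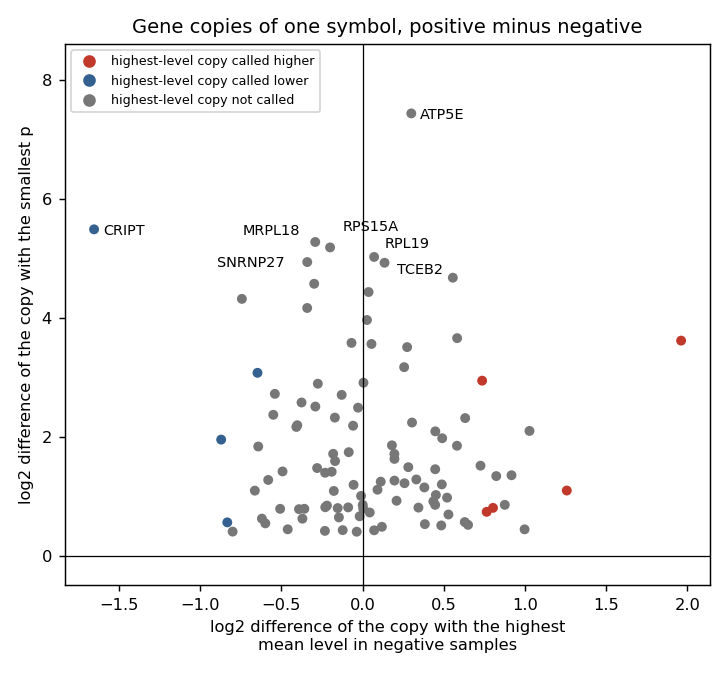
Symbols carried by several genes, with the log2(FPKM + 1) difference, positive minus negative, of the copy with the highest mean level in negative samples on the horizontal axis and that of the copy with the smallest p on the vertical axis. Points spread along the vertical axis up to 7.43 (ATP5E), while most copies with the highest level lie near 0 and were not called (grey). The 107 symbols whose highest-level copy was tested are drawn.

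Ribosomal and respiratory genes were next described by list. Of 144 tested genes of cytosolic ribosomal proteins, 22 were higher (15.3%) and 3 lower (2.08%), with a median difference of 0.30. Over all genes tested these were 9.75%, 3.35% and 0.08. Of the 73 with a description, 1 was higher (RPL7A, 2.09) and 1 lower (RPL9, -1.22), while 21 of the 71 without one were higher and 2 lower. The higher ones included copies of RPS23 (4.57), RPL19 (5.02) and RPL7 (4.43). That of RPS23 passed the filter through positive samples alone, so its value is a description. Among all undescribed genes tested, 20.7% were higher. With genes that passed the filter through positive samples alone left out, 18 of 66 undescribed genes of this list were higher (27.3%). The share was then 15.7% of all undescribed genes (99 of 629). The median of the undescribed genes stayed positive with median-of-ratios factors (0.28) and with quantile normalization (0.30).

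Of 75 genes of the mitochondrial ribosome, 10 were higher (13.3%) and 1 lower (1.33%), with a median of 0.25, which was -0.01 with the number of genes detected as a covariate. MRPL30, which has a description and a symbol of its own, was 91.8, 120 and 181 FPKM in positive samples against 0.143, 16.4 and 40.1 in negative samples, a log2 difference of 3.003 (SE 0.42, limma's adjusted p = 5.48e-06). Of 81 respiratory chain and ATP synthase genes of the nucleus, 9 were higher (11.1%) and 1 lower (1.23%), with a median of 0.24. These shares were near those of all genes tested (9.75% and 3.35%). NDUFB6, a subunit of complex I, was 253, 307 and 380 FPKM in positive samples against 37.7, 129 and 173 in negative samples, with no overlap (log2 difference 1.33, SE 0.25). NDUFB5, of the same complex, was 210 to 315 FPKM in positive samples and 10.7 to 159 FPKM in negative samples.

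Among the genes encoded in mitochondrial DNA the calls were in the other direction. Of the 13, 0 were higher and 6 lower (ND4, ND2, COX1, COX3, ND3 and ND4L), with a median of -1.42. Over all genes tested, 9.75% were higher and 3.35% lower. ND4, a subunit of complex I, was 0.707, 17.7 and 159 FPKM in positive samples against 11.97, 53.5 and 252 in negative samples, a log2 difference of -2.03 (SE 0.52, limma's adjusted p = 0.00756). The ranges overlapped widely, and without LLO replicate 4 the lower genes numbered 0 of 13. LLO replicate 4 had the smallest mitochondrially encoded share of FPKM of the 29 samples, 0.00266%. That share was 0.0442% at the median in positive samples and 0.135% in negative samples, and within groups it did not differ beyond the spread (exact permutation test, p = 0.944).

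Of 20 tested genes of steroid hormone metabolism, 1 was higher (5%) and 1 lower (5%), against 9.75% and 3.35% of all genes tested. The higher gene was SRD5A1, a steroid 5-alpha reductase (0.66), and the lower one STAR. The other 8 tested members of the HSD17B family were not called, with adjusted p from 0.142 to 0.766 by limma. Among them HSD17B10, a mitochondrial dehydrogenase, was 149 FPKM at the median in positive samples against 182, and HSD17B12, of fatty acid elongation, was 8.82 against 11.1. The estrogen receptor ESR2, with a difference of 0.44, was at most 1.16 FPKM and passed the filter through positive samples alone.

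Of the genes with a symbol in the FPKM data, those nearest to HSD17B2 in the goat reference annotation did not follow it. Annotated genes without such a symbol were passed over. On one side lie SDR42E1 and PLCG2 and on the other MPHOSPH6 and CDH13, and none was called (limma's adjusted p from 0.216 to 0.965). MPHOSPH6, an RNA exosome cofactor, was 64.4, 160 and 249 FPKM in positive samples against 37.2, 152 and 339 in negative samples. SDR42E1, a short-chain dehydrogenase, was 0.951 FPKM at the median in positive samples against 2.28.

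Of 24 tested steroid and retinoid receptor genes, 3 were higher (12.5%) and 1 lower (4.17%), near the shares of 9.75% and 3.35% of all genes tested. NR1H3, the oxysterol receptor LXR-alpha, was 25.6, 55.0 and 87.7 FPKM in positive samples against 0.255, 4.54 and 11.1 in negative samples, with no overlap. Its log2 difference was 3.29 (SE 0.35, limma's adjusted p = 2.96e-08). ESRRA, an orphan receptor of mitochondrial genes, was 4.05, 5.29 and 7.64 FPKM in positive samples against 0.355, 2.62 and 4.03 in negative samples (log2 difference 0.84, SE 0.18). The lower receptor gene was PGRMC1.

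Of 25 tested genes of fatty acid handling, 4 were higher (16%) and 1 lower (4%), against 9.75% and 3.35% of all genes tested. DGAT2, of triglyceride synthesis, was higher (1.04), as were ELOVL6, of fatty acid elongation (0.70), FABP1 and FABP5, which bind fatty acids, while CD36, a fatty acid carrier, was lower (-1.08). CD36 was 0.0827 FPKM in LLO replicate 4 and 0.0703 in LSO replicate 1. In the other positive samples it was 0.845 to 3.28 FPKM, against 1.03 to 7.48 in negative samples. Of 26 genes of retinoid and sterol metabolism, CRABP1 and CYP51A1 were higher and ALDH1A1 lower, and both higher genes passed the filter through positive samples alone.

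Of 45 genes of meiotic arrest and resumption, 1 was higher (2.22%) and 2 lower (4.44%), against 9.75% and 3.35% of all genes tested. The higher one, AURKC, a meiotic kinase, was 44.0, 81.2 and 258 FPKM in positive samples against 14.1, 44.5 and 138 in negative samples (log2 difference 1.30, SE 0.40). PRKAR1A, a regulatory subunit of protein kinase A, and MAP2K1, a MAP kinase kinase, were lower by -0.97 and -0.79. Of 50 genes of maternal mRNA storage and decay counted, CNOT10, of the deadenylase complex, was higher (2%) and DAZL, an RNA-binding protein of germ cells, lower (2%). Of 39 genes of chromatin and DNA methylation, SUV39H2, KMT5A and H2AFZ were higher (7.69%). SUV39H2 passed the filter through positive samples alone. With such genes left out, 2 of 35 were higher (5.71%), against 7.63% of all genes.

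Stress and defence genes were set beside the shares of all genes (9.75% higher and 3.35% lower), and some single genes stood out. The share of higher genes was near that of all genes in the heat shock list. It was smaller in the antiviral (6.25%), apoptosis (5.56%) and proteasome (0%) lists. Of 47 genes of heat shock and the unfolded protein response, 5 were higher (10.6%) and 0 lower. ATF6, a sensor of the endoplasmic reticulum, was 2.81, 6.07 and 17.5 FPKM in positive samples against 0.203, 0.842 and 4.11 in negative samples (log2 difference 2.06, SE 0.24). Of 16 antiviral genes, 1 was higher, TLR3, a sensor of double-stranded RNA, at 2.04, 3.28 and 6.32 FPKM against 0.131, 0.599 and 2.63. Of 18 genes of apoptosis, MCL1 was higher and BCL2L14 lower. BCL2L14 was 0.211 FPKM in LLO replicate 4 and 0.131 in LSO replicate 1. In the other positive samples it was 2.06 to 4.59 FPKM, against 2.69 to 9.59 in negative samples. Of 52 proteasome genes, 0 were higher and 2 lower (PSMD5 and PSMA8).

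Transporters and zinc finger genes were described as large families. Of 152 tested solute carrier genes, 18 were higher (11.8%) and 9 lower, and of 124 ZNF genes 13 were higher (10.5%) and 5 lower. Among those also above 0.5 FPKM in at least 4 negative samples, 11 of 141 carriers (7.80%) and 5 of 111 ZNF genes (4.50%) were higher. Over all genes tested, 9.75% were higher and 3.35% lower. Over all genes above 0.5 FPKM in at least 4 negative samples, 7.63% were higher and 3.55% lower. The glucose transporter gene SLC2A3, which passed the filter through positive samples alone, was 0.789, 2.195 and 8.44 FPKM in positive samples against 0, 0.167 and 1.46 in negative samples.

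**Figure D4:**
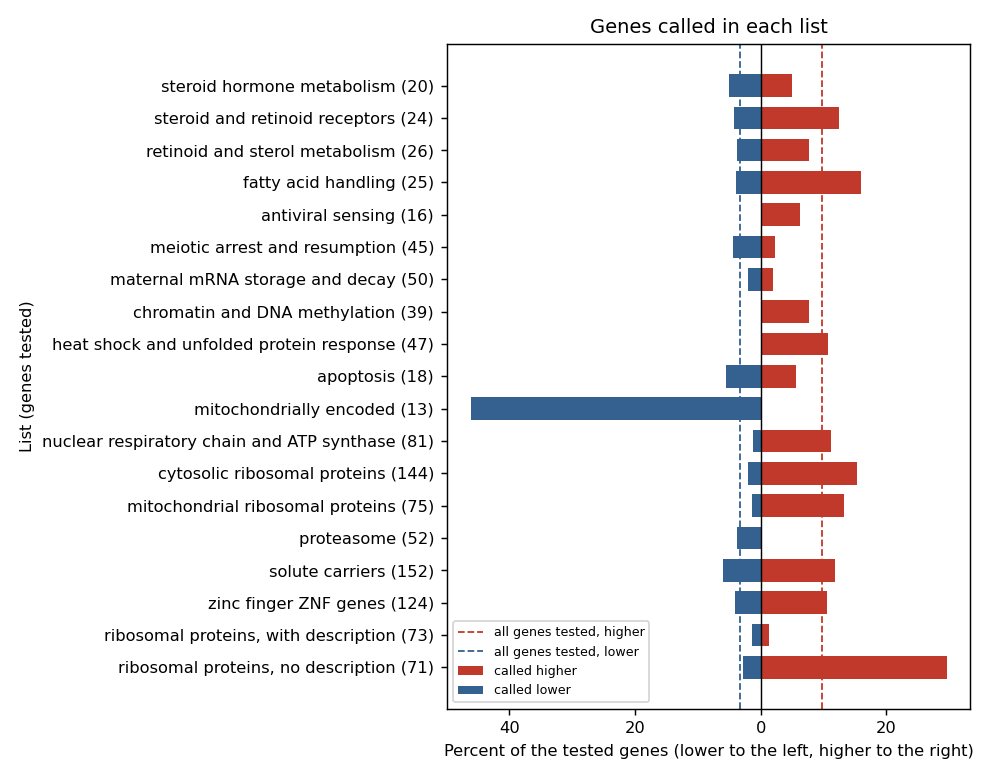
Percent of the tested genes of each list called higher (red, to the right) or lower (blue, to the left) in positive samples, with the number tested in brackets and the percentages over all genes tested as dashed lines (9.75% and 3.35%). Of the lists drawn, undescribed ribosomal protein genes reach farthest to the right (29.6%) and mitochondrially encoded genes farthest to the left (46.2%).

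Markers of other cell types were summed over each list in FPKM. The leukocyte list summed to 8.29 to 146 FPKM in positive samples and 2.38 to 673 in negative samples, mostly through CD52, at 3.32 to 138 and 0 to 667 FPKM. The granulosa and cumulus list summed to 15.7 to 39.5 and 23.0 to 79.6 FPKM, the theca and stroma list to 13.9 to 58.7 and 12.99 to 86.5 FPKM, and the erythroid list to 2.95 to 12.7 and 2.03 to 34.1 FPKM. The sums for tract epithelium were 6.23 to 21.2 and 3.05 to 26.3 FPKM, for enterocytes and hepatocytes 3.41 to 6.65 and 1.11 to 6.22, and for endothelium 1.51 to 3.38 and 1.10 to 4.31. The ranges of the positive and negative samples overlapped in each of these lists. Over all genes tested, 9.75% were higher and 3.35% lower, and most of these lists hold few tested genes. Of 10 tested granulosa and cumulus genes, GJA1 and ESR2 were higher and STAR lower, with GJA1, a gap junction protein, at 0.657 to 4.23 FPKM in positive samples. Of 9 theca and stroma genes, TCF21 was higher and COL1A2 lower. Of 4 leukocyte genes, CORO1A was higher, while the defining leukocyte gene PTPRC was at most 0.0538 FPKM in all samples. Of 5 genes of reproductive tract epithelium, UPK1B (2.02) and EPCAM (0.82) were higher, with UPK1B at 0.385 to 12.2 FPKM in positive samples and at most 0.512 in negative samples. Of 7 enterocyte and hepatocyte genes, FGB (1.09) and FABP1 (0.68) were higher, while FABP2 was listed at 0 in all samples and VIL1 was at most 0.0343 FPKM. ESR2, UPK1B and FGB passed the filter through positive samples alone. With such genes left out, 1 of 9 granulosa and cumulus, 1 of 4 tract epithelium and 1 of 6 enterocyte and hepatocyte genes were higher. The share of all genes was then 7.63%. None of 3 endothelial and 2 erythroid genes was called, and of 26 oocyte genes DAZL was lower (-0.95). Their part in the differences was not tested.

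The comparison was also fitted in the high and in the low fertility samples alone, which share no sample. Of 8570 genes tested in both, 78 were called in the high and 292 in the low fertility samples. Called in both were 68 genes, which are 87.2% of the high and 23.3% of the low fertility calls, and all 68 were higher in positive samples in both. Of the 68, 27 were above 0.5 FPKM in under 4 of all negative samples, where the filter fixed the direction, and 41 were not. Each set was filtered on its own samples, so some of the 41 passed in a set only through positive samples. UBXN2A, for example, was above 0.5 FPKM in under 4 low fertility negative samples. The 68 genes are therefore given as a description. Over all 8570 genes the differences had the same sign in 63.7% (Pearson's r 0.53, Spearman's rho 0.40, across genes, which are not independent replicates). In the high fertility samples all positive samples were HMO, so with follicle size as a covariate that difference rests on 4 positive samples against HMO replicate 2 alone.

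The named higher genes show this in values. PAK3 had a log2 difference of 1.55 in the high and 2.36 in the low fertility samples, and FKBP7 of 2.23 and 2.49, both given as a description. In the low fertility samples UBXN2A, ATP6AP1L and ROPN1L also passed the filter only through positive samples. Of the 12 higher genes, 10 were called in both sets of samples, with CXCL10 and MCEE past the threshold in low fertility samples alone (limma's adjusted p of 0.0750 and 0.0542 in high fertility samples). HBEGF differed by -1.24 and -1.34 without passing in either set (limma's adjusted p of 0.402 and 0.106). A test of the difference between the sets, the interaction with fertility, called 1 of 9691 genes (0.0103%), with 828 at an unadjusted p under 0.05. That gene was TCERG1L, a relative of a transcription elongation regulator, at 0.503 to 1.28 FPKM in the positive HMO samples and at most 0.0629 FPKM in the positive LLO and LSO samples. It passed the filter through the positive HMO samples alone. With single samples left out, TCERG1L was called in 13 of the 25 fits in which it passed the filter.

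**Figure D5:**
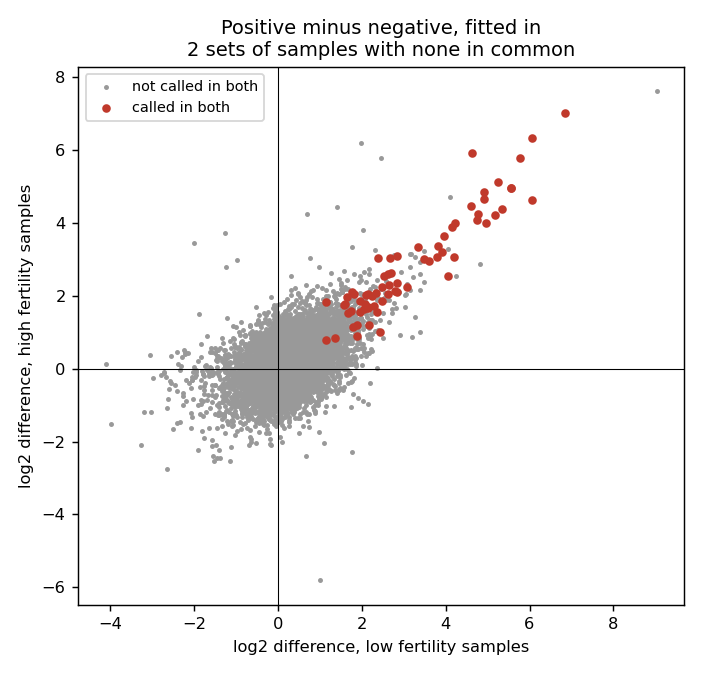
Difference of positive minus negative samples on the log2(FPKM + 1) scale, per gene, in the low fertility samples (horizontal axis) and in the high fertility samples (vertical axis). The 68 genes called in both (red) all lie in the upper right, where both differences are above 0, and the others (grey) spread around 0.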

How the data were processed

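RNA-seq of 29 goat oocyte samples was analysed. The authors kept uniquely aligned reads, cleared duplicates by picard, computed FPKM by Cufflinks on the Ensembl annotation and deposited these FPKM as 1 table of genes by samples; the aligner and the genome build are not given in the sources used here. Columns were assigned by name, and 1 column was not used. FPKM hold no read counts, so the depth behind a value is unknown and no counting interval is given.

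Genes above 0.5 FPKM in at least 4 of 29 samples were tested by limma 3.58.1 (R 4.3.3) with a trend on log2(FPKM + 1), with follicle size and fertility as covariates. Single values per sample had exact permutation tests. Procedures were tested on simulated data. Named genes were, per direction, the 12 with the smallest p, a symbol of their own and a log2 difference beyond 1, then list members past the threshold (up to 4 per list by smallest p), the HSD17B family, the 10 genes with a symbol of their own most like HSD17B2, its neighbours (2 per side, from a RefSeq table used for gene order alone) and GDF9, BMP15 and ZP3; others were named after their values were seen. A member of 1 list is not reported here. Samples, members and gene lists were chosen with earlier results of these data known. Alternatives were other pseudocounts (0.1 and 0.5), filters, normalizations, covariates, weights, a replicate block and samples left out. Python 3.11.15 was used, with figures from matplotlib 3.10.9.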

Additional observations from a re-analysis of the deposited data

Results flagged for a closer look

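In 52 comparisons the highest or lowest sample of a group was set against the rest, for a named gene or a value per sample. In 4 of them a sample was far from the others by Dixon's 95% limit, which chance passes in about 1 in 20 comparisons. The comparisons share samples, so they are not independent, and the genes were the higher and lower ones named by rule. HBEGF was 23.8 FPKM in LLO replicate 4, apart from the other positive samples. The FPKM sum of LMO replicate 2 was 222697, apart from the other LMO samples. The mitochondrially encoded share of FPKM was 0.967% in LSO replicate 3, apart from the other positive samples, and 0.389% in HLO replicate 1, apart from the other HLO samples.

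The difference of TCERG1L between positive and negative samples was larger in the high than in the low fertility group, by 0.88 on the log2(FPKM + 1) scale (limma's interaction test, adjusted p = 0.0272). With 1 sample left out in turn, it was called in 13 of the 25 fits in which it passed the filter, with adjusted p of up to 0.129, and above 1 FPKM no gene was called. All 4 positive HMO samples lay above the 4 positive low fertility samples. TCERG1L passed the filter through these HMO samples alone, so its values are a description.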

How the results depend on the processing

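The counts of 945 higher and 325 lower genes kept the excess of higher genes in the alternatives run, except with the number of genes detected as a covariate, which gave 942 higher and 1005 lower. Higher genes numbered 1426 without a filter, 408 in HMO, LLO and LSO alone, 76 in high and 319 in low fertility samples alone. Lower genes numbered 562 with quantile normalization, 759 with array weights, 151 with 6 group means as covariates, 1043 with the first principal component as a covariate, 53 in HMO, LLO and LSO alone, 5 in high and 14 in low fertility samples alone, and 544 without LLO replicates 2 and 5 and LMO replicate 2. Without LLO replicate 4 and LSO replicate 1 there were 366 higher and 56 lower genes. The alternatives with fertility groups alone, without these samples and within replicate numbers were chosen after seeing the data. The cause was not tested.

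Genes whose difference varied with fertility numbered 2 with a pseudocount of 0.5, 8 without a filter, 0 above 1 FPKM, 3 with array weights and 0 without LLO replicates 2 and 5 and LMO replicate 2. With each sample left out in turn, higher genes numbered 510 (without LLO replicate 4) to 1092 (without LSO replicate 3), lower genes 131 (without LLO replicate 4) to 382, and genes varying with fertility 0 to 18 (without LSO replicate 3). The difference of the first principal component was then 16.8 to 46.7, of genes detected 314 (without LLO replicate 4) to 830 (without LSO replicate 5, exact permutation p from 0.04 to 0.28), of the FPKM sum 9261 (without HMO replicate 2) to 40142, and of the mitochondrially encoded share -0.0920 (without LSO replicate 3) to 0.0872 percentage points, against 0.0208. Over all 29 samples without regard to group, that share differed by -0.105 points (exact permutation test, p = 0.496).

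With the replicate number as a block there were 1089 higher and 499 lower genes, and 3 varied with fertility. Same-numbered samples of different groups correlated above 0.1 in 55 of 70 pairs, with a lowest value of -0.57. In 20 of 29 samples the mean correlation was highest with samples of their own number. The mean r was 0.363 within a number and -0.0911 between numbers, so same-numbered samples were more alike on average. What they share was not tested. The main fit had no block for the numbers, since the methods describe pooled oocytes divided into samples for the high fertility group. Its p-values therefore leave this likeness out. Positive samples numbered 2, 0, 2, 3 and 1 in replicates 1 to 5. Compared within replicate numbers (exact permutation tests, 27000 arrangements), the difference was 8.95 on the first component (p = 0.475), 308 genes detected (p = 0.0601), 18232 in FPKM sum (p = 0.226) and -0.155 points in mitochondrially encoded share (p = 0.341).

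Over 47 alternatives per gene, the 12 higher named genes no longer passed the threshold in 2 values (CXCL10 and MCEE) and the 12 lower ones in 27, with none reversed. The genes given next changed sign and had not been called. In high fertility samples alone KDR was 0.195, HSD17B12 0.33, HSD17B4 0.20 and CDH13 0.052. In low fertility samples alone HSD17B4 was 0.081, BMP15 0.057 and MPHOSPH6 -0.21. HSD17B4 was 0.12 with 6 group means and in HMO, LLO and LSO alone, where MPHOSPH6 was -0.064. With genes detected as a covariate HSD17B3 was -0.12, MPHOSPH6 -0.29, PLCG2 -0.059 and ZP3 -0.45, and with the first principal component MPHOSPH6 was -0.20 and ZP3 -0.059. MPHOSPH6 was -0.10 with median-of-ratios factors, -0.15 with quantile normalization, -0.077 with the block, -0.019 without covariates and -0.10 without the 3 samples. Without LLO replicate 4 and LSO replicate 1, PLCG2 was -0.14 and ZP3 -0.39. PLCG2 was -0.047 with quantile normalization and -0.19 with array weights. With a sample left out, the ranges that crossed 0 were -0.14 to 0.051 for HBM, -0.12 to 0.21 for MPHOSPH6, -0.034 to 0.13 for PLCG2 and -0.22 (without LLO replicate 4) to 0.44 for ZP3.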
